A study of Danio rerio with 12 samples.

Results

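Oxidative phosphorylation is carried out by complexes I to V of the inner mitochondrial membrane, and 92 zebrafish genes named for these complexes were followed here through heart amputation and dioxin exposure. The genes were taken by symbol: any probe set with a single gene symbol that begins with nduf, sdha to sdhd, uqcr, cyc1, atp5, or cox and a digit was a candidate, which gave 102 probe sets. Of several probe sets for a gene the brightest was kept. Complexes were assigned by symbol too, so ndufa4a and ndufa4b count here with complex I. The 92 genes are part of 8796 genes that had a single-symbol probe set, and 15502 probe sets were tested in all. Complex I was represented by 39 genes (33 subunits and 6 assembly factors), complex II by 7 (4 subunits and 3 assembly factors), complex III by 8 subunits, complex IV by 20 (15 subunits and 5 assembly factors) and complex V by 18 (16 subunits and 2 inhibitors). The genes of the ATP synthase alpha subunit and of several muscle-type complex IV isoforms had no single-symbol probe set and were not analysed here.

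The samples were ventricle apex tissue of adult zebrafish of the AB strain, hybridised to 12 Affymetrix arrays, with 2 arrays in each of 6 groups. TCDD (2,3,7,8-tetrachlorodibenzo-p-dioxin), an environmental contaminant that activates the aryl hydrocarbon receptor, was given at 70 ng/g into the peritoneum 1 day ahead of surgery, and control fish were given vehicle. The groups were TCDD and control hearts without amputation (0 hpa), TCDD and control hearts at 6 hours (6 hpa), and TCDD and control hearts at 7 days (7 dpa) after the ventricle was amputated. The labels list the control treatment as none, while the protocol names a vehicle. Unamputated fish had no sham surgery named in the labels. Injection is listed as 1 day before surgery in all 6 groups, and unamputated hearts were sampled at 0 hpa only. Time since injection and time after amputation therefore cannot be told apart. The regenerate and the amputation plane lie in the apex, so amputated and unamputated apex samples need not hold the same mix of cells. Each array carried RNA pooled from 10 hearts, so p-values measure the spread between pools and not between fish.

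Complexes I and II pass electrons from NADH and succinate to ubiquinone, complex III hands them to cytochrome c, and complex IV reduces oxygen with them. Complexes I, III and IV pump protons, and complex V, the ATP synthase, uses the gradient to make ATP. Heart muscle relies on this pathway for most of its ATP and is among the tissues richest in mitochondria. All but a few of the subunits are encoded in the nucleus, and assembly factors build the complexes without remaining in them.

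Levels below are log2 of the deposited intensities, and a change of 1 on this scale is a factor of 2. Differences came from limma (a linear model with moderated variance) fitted to all 15502 probe sets and 12 arrays, with Benjamini-Hochberg adjustment over all of them. A gene is said to have fallen or risen where its adjusted p was under 0.05. The labelled tissue was borne out by its defining markers: the cardiac genes myl7, cmlc1, tnnt2a, actc1a and mb averaged 12.7, 12.6, 12.1, 12.8 and 12.2. One array, TCDD 6 hpa replicate 1, had a lower bright end than the rest. Its 99th percentile of log2 intensity was 9.88, against 10.41 to 10.64 elsewhere, and its actin control gave a 3′ signal 2.50 above the 5′ signal on the log2 scale, against −0.45 to 1.51 elsewhere. Among the 92 genes, 83 had their lowest value on that array, as had 18.6% of all probe sets tested. Most probe sets are far dimmer than the 92 genes, and the share among equally bright ones is not given here. Most medians and some counts at 6 hpa are therefore also given without it, and single genes where their call turns or their difference moves by over 1.5 times. At 7 dpa its absence changes adjusted p-values and no difference.

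The genes were bright. Their median level over the 12 arrays was 8.86, against 3.38 for all probe sets tested, and 81 of the 92 lay above the 90th percentile of all probe sets. Of the 11 genes with a mean under 6, 10 were assembly factors and 1 was a subunit gene, cox4i2. A change of so dim a gene may be understated, since intensities near background differ little, and the brightness of a probe set also depends on its probes.

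After amputation the transcripts of all 5 complexes were lower at both times. Averaged over both treatments, all 92 genes were below their 0 hpa level at 6 hpa, with a median difference of −1.08, and 89 of 92 at 7 dpa, with a median of −0.97. The median of all probe sets tested was 0.05 at 6 hpa and −0.02 at 7 dpa. At 6 hpa 36 of the 92 fell, where 5.54% of all probe sets fell, and 0 rose, where 1.86% of all probe sets rose. At 7 dpa 30 of the 92 fell, where 2.75% of all probe sets fell, and 0 rose, where 4.73% of all probe sets rose. Without regard to multiple testing, 2 were higher at 7 dpa at an unadjusted p under 0.05, where 10.6% of all probe sets were. Both comparisons share the 0 hpa arrays. In bulk tissue, fewer cells of a type and less RNA per cell cannot be told apart.

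**Figure D1:**
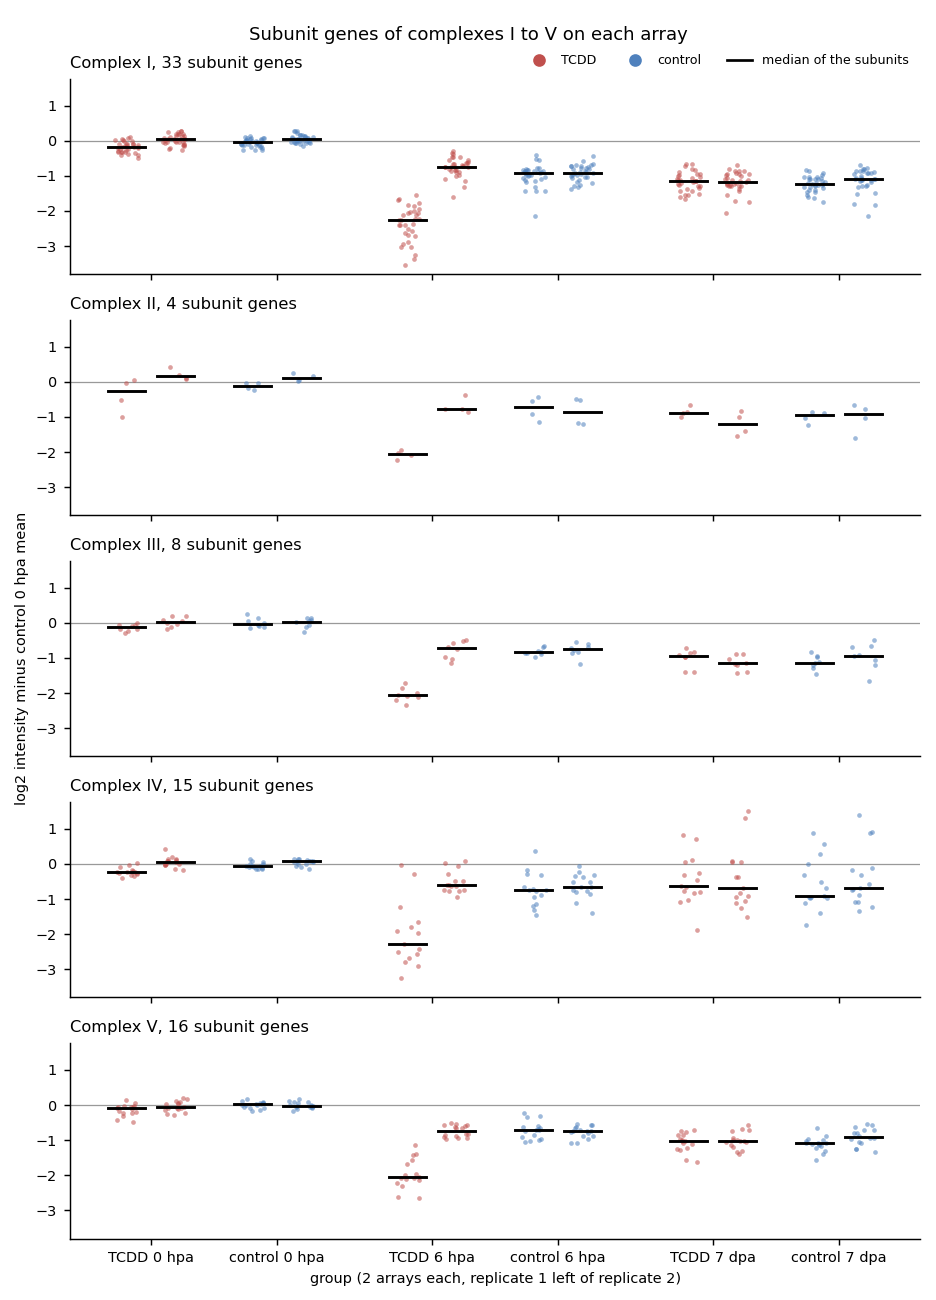
Log2 intensity of each nuclear or mitochondrial subunit gene minus its mean in control 0 hpa hearts, for complexes I to V (panels) on the 12 arrays; points are genes, black bars the median of the subunits. The 4 arrays at 0 hpa lie near 0, the arrays at 6 hpa and 7 dpa lie below it, TCDD 6 hpa replicate 1 lies lowest, and complex IV is spread widest at 7 dpa.

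The subunit medians of the 5 complexes lay close together on each 6 hpa array. The median of their subunits, relative to the control 0 hpa mean, was between −2.29 and −2.06 on TCDD 6 hpa replicate 1 and between −0.77 and −0.61 on TCDD 6 hpa replicate 2. On control 6 hpa replicate 1 it was between −0.91 and −0.72, and on replicate 2 between −0.92 and −0.65. At 7 dpa the complexes were further apart. Their subunit medians ran from −1.16 to −0.62 and from −1.21 to −0.69 in the TCDD hearts and from −1.24 to −0.92 and from −1.09 to −0.67 in the control hearts, and complex IV held the highest of the 5 medians on each of these 4 arrays. The median of complex IV minus that of complex I was 0.54 and 0.49 in TCDD hearts and 0.32 and 0.41 in control hearts at 7 dpa. At 6 hpa it was −0.02 and 0.13 in TCDD hearts and 0.17 and 0.27 in control hearts, so it was above 0 there too on all but TCDD 6 hpa replicate 1. At 0 hpa it was −0.05 and 0.00 in TCDD hearts and −0.03 and 0.03 in control hearts. The 2 control values at 0 hpa mirror each other around 0 by construction, since the mean of those arrays is the reference.

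Groups that do not overlap give a view of the same data that needs no model. All 4 arrays at 6 hpa lay below all 4 at 0 hpa for 77 of the 92 genes, which held for 11.0% of all probe sets. With TCDD 6 hpa replicate 1 left out, the remaining 3 arrays lay below all 4 at 0 hpa for 77 genes, which held for 12.9% of all probe sets. All 4 arrays at 7 dpa lay below all 4 at 0 hpa for 76 genes, which held for 8.86% of all probe sets.

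Leaving out TCDD 6 hpa replicate 1 reduced the size of the difference at 6 hpa and raised the number of genes called. The median at 6 hpa became −0.72, and 53 of the 92 genes fell, where 4.52% of all probe sets fell; 34 genes were called both with and without the array. For 42 of the 92 genes the 6 hpa difference with the array was over 1.5 times that without it. At 7 dpa the median stayed at −0.97, since the array has no part in that difference, while 75 genes fell, where 4.91% of all probe sets fell. A further 2, cox6a1 and cox5ba, rose, where 6.37% of all probe sets rose. The array enters the 7 dpa tests only through the spread shared by the 6 groups: the median standard error of the 92 genes at 7 dpa was 0.28 with it and 0.15 without it. Leaving out replicate 2 of the same group, which also removes that group's spread, raised the number called at 7 dpa too. With each of the 12 arrays left out in turn, the number called moved widely. It was lowest at both times without control 0 hpa replicate 1. The medians stayed between −1.42 and −0.72 at 6 hpa and between −1.05 and −0.92 at 7 dpa.

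Other probe sets of like brightness were lower at 6 hpa as well, by less. They are the 246 other probe sets with means between the quartiles of the 92 genes (8.14 and 9.75), a set chosen after the data were seen. Their median difference at 6 hpa was −0.45 with all arrays and −0.12 without TCDD 6 hpa replicate 1, against −1.08 and −0.72 for the 92 genes. At 7 dpa the median was −0.20 for these 246 probe sets, against −0.97 for the 92 genes. On TCDD 6 hpa replicate 1 itself the 246 probe sets had a median deviation of −1.49, against −2.08 for the 92 genes.

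Complex I is the entry point for NADH, and its 33 subunits had a median difference of −1.23 at 6 hpa and −1.16 at 7 dpa. Of them 15 fell at 6 hpa, where 5.54% of all probe sets fell, and 14 at 7 dpa, where 2.75% did. Their 6 hpa median without TCDD 6 hpa replicate 1 was −0.80, over 1.5 times smaller. Of the NADH-oxidising arm, ndufs1, ndufv1 and ndufv2 were among those called. For ndufs1, which codes for the largest iron-sulfur subunit, the TCDD hearts had levels of 9.94 and 9.84 and the control hearts 10.05 and 9.84 at 0 hpa. At 6 hpa ndufs1 was at 7.53 and 8.62 in TCDD hearts and 9.07 and 8.57 in control hearts, and at 7 dpa at 8.79 and 8.19 in TCDD hearts and 8.53 and 8.41 in control hearts. All 8 arrays after amputation lay below all 4 at 0 hpa. ndufs1 differed by −1.47 ± 0.25 at 6 hpa (SE, limma, adjusted p = 0.011) and by −1.44 ± 0.25 at 7 dpa (limma, adjusted p = 0.00972).

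The 2 flavoprotein subunits that take up the electrons of NADH fell at both times too. For ndufv1, which binds the flavin, the levels were 9.13 and 9.32 in TCDD hearts and 9.45 and 9.44 in control hearts at 0 hpa, 7.07 and 7.83 in TCDD hearts and 8.47 and 8.13 in control hearts at 6 hpa, and 8.50 and 8.38 in TCDD hearts and 8.12 and 8.37 in control hearts at 7 dpa. The 6 hpa arrays of TCDD lay below those of control, and no array after amputation reached the 0 hpa range. ndufv1 differed by −1.46 ± 0.18 at 6 hpa (limma, adjusted p = 0.00388) and by −0.99 ± 0.18 at 7 dpa (limma, adjusted p = 0.0119). ndufv2, an iron-sulfur subunit beside it, differed by −1.11 ± 0.22 at 6 hpa (limma, adjusted p = 0.0189) and by −1.44 ± 0.22 at 7 dpa (limma, adjusted p = 0.00552), and its second probe set by −1.39 and −1.83.

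The 33 subunits ranged from −1.65 to −0.68 at 6 hpa, the latter in ndufa4b, and from −1.48 to −0.83 at 7 dpa. ndufa9a, which lies close to the ubiquinone site, had the largest fall of the complex at 7 dpa (−1.48 ± 0.28, limma, adjusted p = 0.0139), and was at 7.71 and 7.69 in TCDD hearts and 7.61 and 7.95 in control hearts then. At 0 hpa ndufa9a was at 9.23 and 9.20 in TCDD hearts and 9.27 and 9.18 in control hearts, above every array at the later time. ndufc1 and ndufb6, both of the membrane arm, had the largest differences of the complex at 6 hpa with all arrays, and ndufv1 (−1.27) and ndufs1 (−1.20) had the largest among subunits without TCDD 6 hpa replicate 1. ndufc1 was at 5.70 and 7.91 in TCDD hearts and 7.65 and 7.79 in control hearts at 6 hpa, against 8.57 and 8.96 in TCDD hearts and 8.99 and 9.16 in control hearts at 0 hpa. Its difference of −1.65 ± 0.39 (limma, adjusted p = 0.0378) was −1.10 without TCDD 6 hpa replicate 1 (limma, adjusted p = 0.00582), and it then passed at 7 dpa too (limma, adjusted p = 0.00142). A second ndufb6 probe set, near background with a mean of 2.62, differed by 0.11 at 6 hpa and −0.32 at 7 dpa. At its kept probe set ndufb6 differed by −1.61 ± 0.49 at 6 hpa and missed the threshold (limma, adjusted p = 0.0885). Its TCDD values there were 5.57 and 8.36, which shows the distance between the 2 arrays. Without the lower of them ndufb6 was at −0.91 and passed (limma, adjusted p = 0.0169), as it did at 7 dpa (limma, adjusted p = 0.00143).

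Several other accessory subunits fell as well. ndufa8 fell by 1.34 at 6 hpa and by 1.16 at 7 dpa, ndufa2 by 1.21 and 1.28, ndufc2 by 1.43 and 1.29, and ndufb8 by 0.87 and 1.06 (limma, all adjusted p under 0.05). ndufb7 fell by 1.29 at 7 dpa, and was at −1.05 at 6 hpa without passing, or −0.61 without TCDD 6 hpa replicate 1. ndufa4a and ndufa4b, placed in complex I by their symbols, are part of its medians, counts and ranges here. The brightest complex I gene was ndufa4a, whose protein is now counted with complex IV. It was at 10.69 and 10.42 in TCDD hearts and 10.52 and 10.47 in control hearts at 7 dpa, against 11.20 and 11.52 in TCDD hearts and 11.17 and 11.51 in control hearts at 0 hpa. The difference of −0.83 ± 0.30 at 7 dpa did not pass (limma, adjusted p = 0.153) and did without TCDD 6 hpa replicate 1 (limma, adjusted p = 0.00621). Its paralog ndufa4b was less even, at 8.16 and 8.01 in TCDD hearts and 7.71 and 6.74 in control hearts at 7 dpa, with a difference of −1.12 ± 0.32 from 0 hpa (limma, adjusted p = 0.0715, or 0.0153 without TCDD 6 hpa replicate 1). At 6 hpa ndufa4a and ndufa4b were at −0.89 and −0.68, or −0.49 and −0.33 without that array, and did not pass either way.

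**Figure D2:**
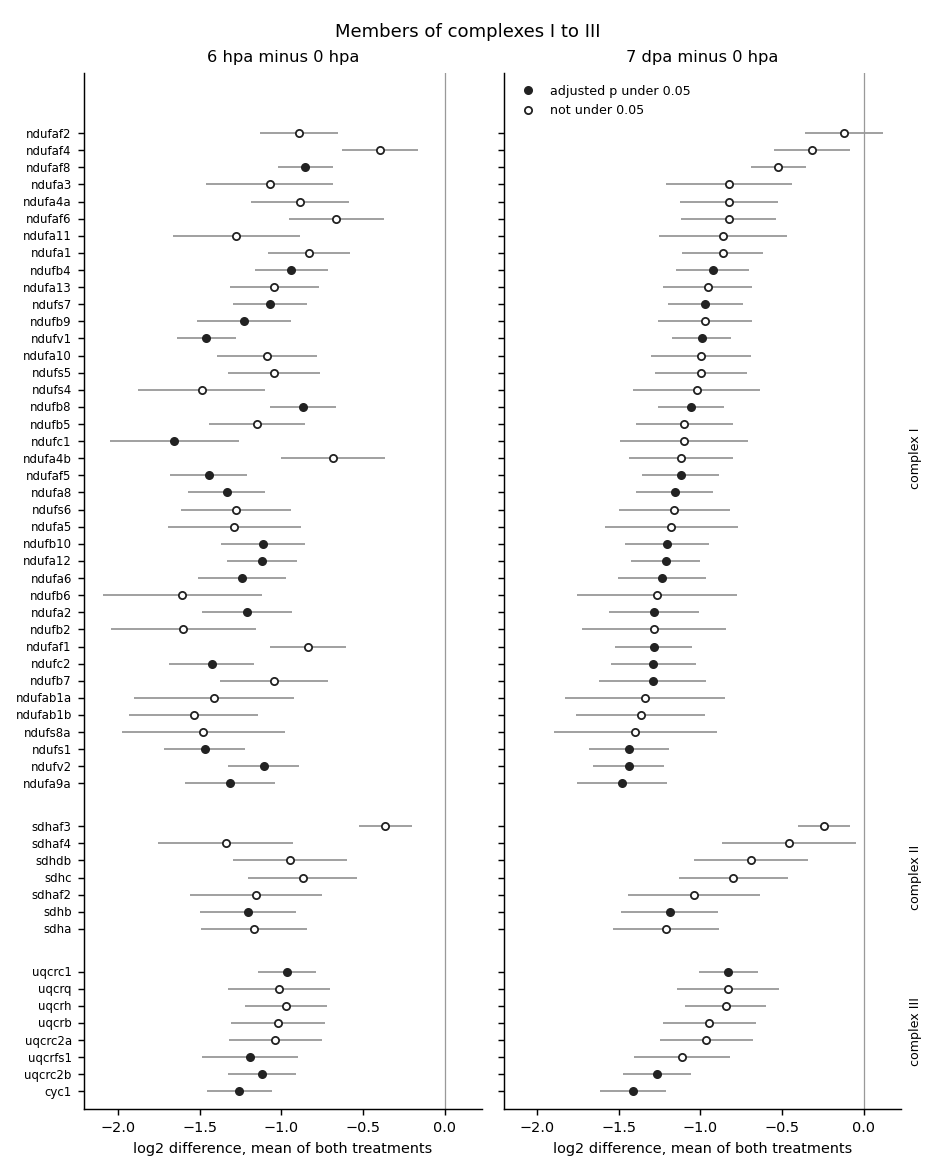
Log2 difference of each gene of complexes I, II and III at 6 hpa (left) and 7 dpa (right) from 0 hpa, averaged over both treatments, with standard error bars; filled points have a limma adjusted p under 0.05. All 54 points lie below 0 at 6 hpa and at 7 dpa, and the dim assembly factors ndufaf2, ndufaf4 and sdhaf3 lie closest to 0 at 7 dpa.

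Of the assembly factors of complex I, which help put the complex together and are no part of it, ndufaf5 and ndufaf8 fell at 6 hpa and ndufaf1 and ndufaf5 at 7 dpa. ndufaf5, known in mammals to modify the ndufs7 subunit, was at 3.35 and 4.10 in TCDD hearts and 4.37 and 3.68 in control hearts at 6 hpa, against 5.37 and 5.40 in TCDD hearts and 5.21 and 5.29 in control hearts at 0 hpa. Every 6 hpa array lay below every 0 hpa array, and the difference was −1.45 ± 0.24 (limma, adjusted p = 0.0102). ndufaf1 differed by −1.29 ± 0.23 at 7 dpa (limma, adjusted p = 0.0127), and its second, dimmer probe set by −1.36. ndufaf2 and ndufaf4, at levels near 4, differed by −0.12 and −0.32 at 7 dpa without passing.

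Complex II, succinate dehydrogenase, is the 1 complex that also belongs to the citric acid cycle and the 1 whose subunits are all nuclear. Its 4 subunits had a median difference of −1.06 at 6 hpa (−0.75 without TCDD 6 hpa replicate 1) and −0.99 at 7 dpa. sdhb, the iron-sulfur subunit, was at 9.57 and 9.71 in TCDD hearts and 9.57 and 9.62 in control hearts at 0 hpa, at 7.37 and 8.83 in TCDD hearts and 9.06 and 8.40 in control hearts at 6 hpa, and at 8.61 and 8.18 in TCDD hearts and 8.37 and 8.56 in control hearts at 7 dpa. sdhb fell at both times, by 1.20 ± 0.30 at 6 hpa (limma, adjusted p = 0.043) and by 1.19 ± 0.30 at 7 dpa (limma, adjusted p = 0.0446). For sdha, the flavoprotein that oxidises succinate, the differences were −1.17 ± 0.32 (limma, adjusted p = 0.066) and −1.21 ± 0.32 (limma, adjusted p = 0.058), just above the threshold, and without TCDD 6 hpa replicate 1 the 7 dpa difference passed (limma, adjusted p = 0.0201). The membrane anchors sdhc and sdhdb were at −0.87 and −0.95 at 6 hpa and at −0.80 and −0.69 at 7 dpa, and neither passed. Without that array sdhc was at −0.45 at 6 hpa and passed at 7 dpa (limma, adjusted p = 0.0303). sdhaf4, an assembly factor, was at −1.34 at 6 hpa (−0.83 without the array) and −0.46 at 7 dpa, and sdhaf3 at −0.36 and −0.24 at levels no higher than 3.38. None of the 3 assembly factors passed.

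All 8 subunits of complex III were lower at both times. They differed by −1.26 to −0.97 at 6 hpa and by −1.41 to −0.83 at 7 dpa. Of them 4 fell at 6 hpa, where 5.54% of all probe sets fell, and 3 at 7 dpa, where 2.75% did. The 6 hpa differences without TCDD 6 hpa replicate 1 were −1.02 to −0.59. cyc1, which codes for cytochrome c1, was at 9.86 and 9.77 in TCDD hearts and 10.07 and 9.81 in control hearts at 0 hpa, at 7.83 and 8.79 in TCDD hearts and 9.09 and 8.77 in control hearts at 6 hpa, and at 8.55 and 8.54 in TCDD hearts and 8.47 and 8.29 in control hearts at 7 dpa. All arrays after amputation lay below all arrays at 0 hpa. cyc1 differed by −1.26 ± 0.20 at 6 hpa (limma, adjusted p = 0.00946) and by −1.41 ± 0.20 at 7 dpa (limma, adjusted p = 0.00419), the lowest adjusted p of the 92 genes at 7 dpa. The core proteins uqcrc1 and uqcrc2b fell at both times, by 0.97 and 1.12 at 6 hpa and by 0.83 and 1.27 at 7 dpa (limma, all adjusted p under 0.05). For uqcrc2a, a second probe set near background (mean 2.54) differed by −0.03 at 6 hpa and −0.08 at 7 dpa. The paralog uqcrc2a was at −1.04 and −0.96 and missed the threshold, while without the array it was at −0.69 at 6 hpa and passed at 7 dpa (limma, adjusted p = 0.00908). uqcrfs1, the Rieske iron-sulfur protein, fell by 1.19 ± 0.29 at 6 hpa (limma, adjusted p = 0.0422) and was at −1.11 ± 0.29 at 7 dpa (limma, adjusted p = 0.0541, or 0.00106 without the array). The brightest after it, uqcrb, a ubiquinone-binding protein, was at −1.02 and −0.95 and did not pass. Without the array uqcrb was at −0.64 at 6 hpa and passed at both times (limma, adjusted p = 0.0376 and adjusted p = 0.00314).

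Complex IV, cytochrome c oxidase, was the exception in its spread at 7 dpa. Its 15 subunits differed by −1.70 to −0.04 at 6 hpa, but by −1.57 to 1.24 at 7 dpa, when 12 were below 0 and 3 above. Their 6 hpa range without TCDD 6 hpa replicate 1 was −1.12 to 0.03, and the median −0.62 in place of −0.997. Several of its nuclear subunits come in isoforms. In mammals COX6A1, COX7A2 and COX8A are the forms of most tissues and COX6A2, COX7A1 and COX8B those of heart and muscle, and whether the fish genes divide in the same way was not tested here.

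At 7 dpa cox6a1 and cox5ba lay above their 0 hpa levels, while most subunit genes lay below. cox6a1 was at 6.93 and 7.24 in TCDD hearts and 7.11 and 7.41 in control hearts at 0 hpa, at 4.98 and 6.77 in TCDD hearts and 6.99 and 7.04 in control hearts at 6 hpa, and at 8.10 and 8.77 in TCDD hearts and 8.15 and 8.65 in control hearts at 7 dpa. All 4 arrays at 7 dpa lay above all 4 at 0 hpa. cox6a1 was higher at 7 dpa by 1.24 ± 0.35, a factor of 2.37, and did not pass with all arrays (limma, adjusted p = 0.0707), while it passed without TCDD 6 hpa replicate 1 (limma, adjusted p = 0.00475). cox5ba, one of the zebrafish paralogs of COX5B, was the other gene with all 4 arrays at 7 dpa above all 4 at 0 hpa, which held for 8.97% of all probe sets. At 6 hpa cox6a1 and cox5ba were at −0.73 and −0.55, or −0.28 and −0.22 without that array, and did not pass. At 7 dpa cox5ba was at 8.53 and 9.13 in TCDD hearts and 8.38 and 8.72 in control hearts, against 7.79 and 8.25 in TCDD hearts and 7.75 and 7.89 in control hearts at 0 hpa. Its difference was 0.77 ± 0.27 (limma, adjusted p = 0.147), which passed without TCDD 6 hpa replicate 1 (limma, adjusted p = 0.0259). These were the 2 genes counted above as higher at an unadjusted p under 0.05 at 7 dpa, where 10.6% of all probe sets were.

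The 7 dpa values of cox8a lay within its 0 hpa range. It was at 8.70 and 9.18 in TCDD hearts and 8.95 and 9.24 in control hearts at 0 hpa, at 7.12 and 8.36 in TCDD hearts and 7.95 and 8.75 in control hearts at 6 hpa, and at 9.14 and 9.18 in TCDD hearts and 8.77 and 8.98 in control hearts at 7 dpa. The difference of cox8a at 7 dpa was −0.00 ± 0.28, and that at 6 hpa −0.97 ± 0.28 (limma, adjusted p = 0.0753). cox7a2a differed by −1.09 ± 0.43 at 6 hpa and by −0.24 ± 0.43 at 7 dpa, and passed at neither time, with −0.50 at 6 hpa without TCDD 6 hpa replicate 1. cox4i2, the gene named after the mammalian isoform induced by low oxygen, was near background throughout, between 3.66 and 4.96, with differences of −0.04 at 6 hpa and 0.27 at 7 dpa.

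Other subunits of complex IV moved with the remaining complexes. cox5ab had the largest difference of all 92 genes at both times with all arrays, while without TCDD 6 hpa replicate 1 ndufv1 (−1.27), cox10 (−1.27), ndufaf5 (−1.26) and ndufs1 (−1.20) lay lower at 6 hpa. It was at 9.19 and 9.34 in TCDD hearts and 9.43 and 9.32 in control hearts at 0 hpa, at 6.12 and 8.44 in TCDD hearts and 7.93 and 7.98 in control hearts at 6 hpa, and at 7.48 and 7.86 in TCDD hearts and 7.65 and 8.03 in control hearts at 7 dpa. All 8 cox5ab values after amputation lay below all 4 at 0 hpa. Its differences were −1.70 ± 0.41 at 6 hpa (limma, adjusted p = 0.0403) and −1.57 ± 0.41 at 7 dpa (limma, adjusted p = 0.0546), and without that array, at −1.12 and −1.57, both passed (limma, adjusted p = 0.00632 and adjusted p = 0.000398). The paralog cox5aa was at −0.997 ± 0.33 at 6 hpa and −0.78 ± 0.33 at 7 dpa and did not pass. Without the array cox5aa was at −0.54 at 6 hpa (limma, adjusted p = 0.0777) and passed at 7 dpa (limma, adjusted p = 0.00938).

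cox7c was the 1 complex IV gene that fell at 7 dpa with all arrays. It was at 10.75 and 10.72 in TCDD hearts and 10.36 and 10.53 in control hearts at 7 dpa, against 11.53 and 11.62 in TCDD hearts and 11.76 and 11.77 in control hearts at 0 hpa, a difference of −1.08 ± 0.18 (limma, adjusted p = 0.00776). cox7c also fell at 6 hpa, by 0.88 (limma, adjusted p = 0.02). cox6b1, which lies on the cytochrome c side of the enzyme, fell at 6 hpa by 1.36 ± 0.33 (limma, adjusted p = 0.0394) and was at −0.60 ± 0.33 at 7 dpa (limma, adjusted p = 0.38, or 0.0353 without TCDD 6 hpa replicate 1). cox7a2l, known in mammals for its part in respiratory supercomplexes, was at −1.27 and −1.04 and did not pass. Without that array cox7a2l was at −0.74 at 6 hpa and passed at both times (limma, adjusted p = 0.0207 and adjusted p = 0.00189). The brightest nuclear genes of the complex, cox6b2 and cox4i1l, were at −0.83 and −0.999 at 6 hpa and at −0.71 and −0.62 at 7 dpa, and did not pass either. Without the array they were at −0.54 and −0.68 at 6 hpa, and both passed at 6 hpa and at 7 dpa (limma, all adjusted p under 0.05).

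COX1 is the 1 gene of the set carried by the mitochondrial genome, and it codes for the catalytic subunit of complex IV. Its probe set was at 13.65 and 13.64 in TCDD hearts and 13.56 and 13.69 in control hearts at 0 hpa, at 13.58 and 13.57 in TCDD hearts and 13.45 and 13.56 in control hearts at 6 hpa, and at 13.73 and 13.25 in TCDD hearts and 13.62 and 13.45 in control hearts at 7 dpa. The groups overlapped, and the differences of −0.10 ± 0.13 at 6 hpa and −0.12 ± 0.13 at 7 dpa did not pass. The other probe sets of COX1 differed by −0.00 and −0.09 at 6 hpa and by −0.21 and −0.19 at 7 dpa. Between 99.9871% and 99.9935% of probe sets were dimmer than COX1 on each array. Whether so bright a signal was saturated, and whether COX1 RNA differed from nuclear transcripts in its response was not tested.

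**Figure D3:**
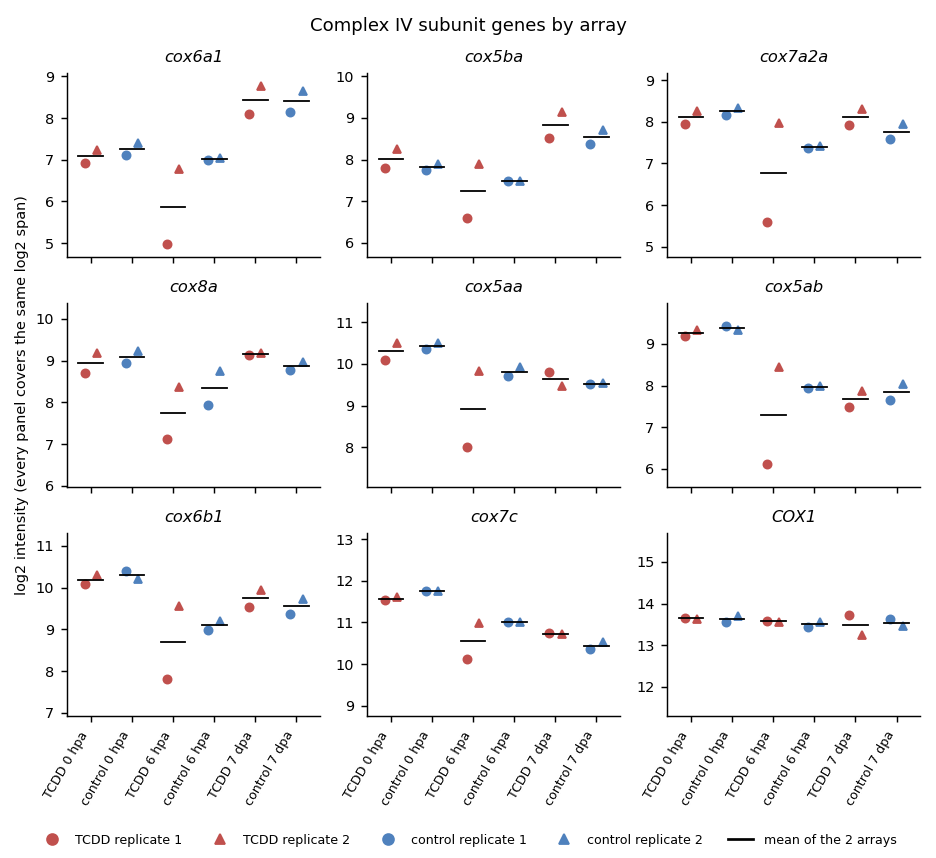
Log2 intensity of 9 complex IV subunit genes in the 6 groups; circles are replicate 1, triangles replicate 2, black bars the mean of the 2 arrays, and every panel covers the same log2 span. At 7 dpa cox6a1 and cox5ba lie above, cox8a within and cox5ab and cox7c below their 0 hpa range, while the groups of COX1 overlap.

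Of the 5 assembly factors of complex IV, cox10, needed to make the heme of the oxidase, and cox17, a copper carrier, fell at 6 hpa, and none fell at 7 dpa with all arrays. cox10 was at −1.27 ± 0.29 at 6 hpa (limma, adjusted p = 0.0322, or 0.06 without TCDD 6 hpa replicate 1) and cox17 at −1.09 ± 0.22 (limma, adjusted p = 0.0218). Without that array cox17 passed at 7 dpa too (limma, adjusted p = 0.0483). These 2 and ndufaf8 were named after their values were seen. A second cox10 probe set, near background with a mean of 2.83, differed by 0.13 at 6 hpa and −0.10 at 7 dpa. cox14 was at −1.42 ± 0.39 at 6 hpa (limma, adjusted p = 0.0636), and without the array cox14 was at −0.91 and passed (limma, adjusted p = 0.0396), as it did at 7 dpa (limma, adjusted p = 0.00741).

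Complex V had all 18 genes below 0 at both times, with medians of −1.04 at 6 hpa and −0.94 at 7 dpa. At each time 9 fell, where 5.54% of all probe sets fell at 6 hpa and 2.75% at 7 dpa. The 6 hpa median without TCDD 6 hpa replicate 1 was −0.68. atp5f1b, the catalytic beta subunit, was at 11.81 and 11.37 in TCDD hearts and 11.83 and 11.47 in control hearts at 0 hpa, at 10.52 and 10.73 in TCDD hearts and 11.43 and 10.90 in control hearts at 6 hpa, and at 10.88 and 10.66 in TCDD hearts and 10.68 and 10.76 in control hearts at 7 dpa. One control array at 6 hpa lay within the 0 hpa range of atp5f1b, and the 4 arrays at 7 dpa lay below it. atp5f1b differed by −0.72 ± 0.17 at 6 hpa (limma, adjusted p = 0.0354) and by −0.88 ± 0.17 at 7 dpa (limma, adjusted p = 0.0161), and its 6 hpa call was lost without TCDD 6 hpa replicate 1 (limma, adjusted p = 0.0755).

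The central stalk and the c-ring turn together as protons pass. atp5f1d, a subunit of the stalk, was at 8.53 and 8.97 in TCDD hearts and 8.60 and 9.09 in control hearts at 7 dpa, against 9.97 and 10.29 in TCDD hearts and 10.21 and 10.12 in control hearts at 0 hpa. It had the largest difference of the complex at 7 dpa, −1.35 ± 0.28 (limma, adjusted p = 0.0212). atp5f1c, the gamma subunit, was at −0.76 ± 0.22 at 6 hpa and −0.65 ± 0.22 at 7 dpa and missed the threshold (limma, adjusted p = 0.0719 and adjusted p = 0.123). Without TCDD 6 hpa replicate 1 atp5f1c was at −0.48 at 6 hpa and passed at 7 dpa (limma, adjusted p = 0.00727). atp5mc3b, one of the genes of the ring protein and the brightest of the complex, was at 11.04 to 11.35 at 7 dpa, against 11.98 to 12.10 at 0 hpa, and fell by 0.83 ± 0.19 (limma, adjusted p = 0.0311). atp5md, a small membrane subunit, fell by 1.11 at 6 hpa and by 1.27 at 7 dpa.

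The inhibitor proteins that stop the enzyme from running backwards, atp5if1a and atp5if1b, were at −1.02 and −1.30 at 6 hpa and at −0.87 and −1.12 at 7 dpa. Neither passed. Leaving out TCDD 6 hpa replicate 1, they were at −0.65 and −0.66 at 6 hpa, again without passing, and both passed at 7 dpa (limma, adjusted p = 0.0261 and adjusted p = 0.00413). atp5if1b was at 6.40 and 8.93 in TCDD hearts and 8.76 and 8.81 in control hearts at 6 hpa, with 1 array far below the others.

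**Figure D4:**
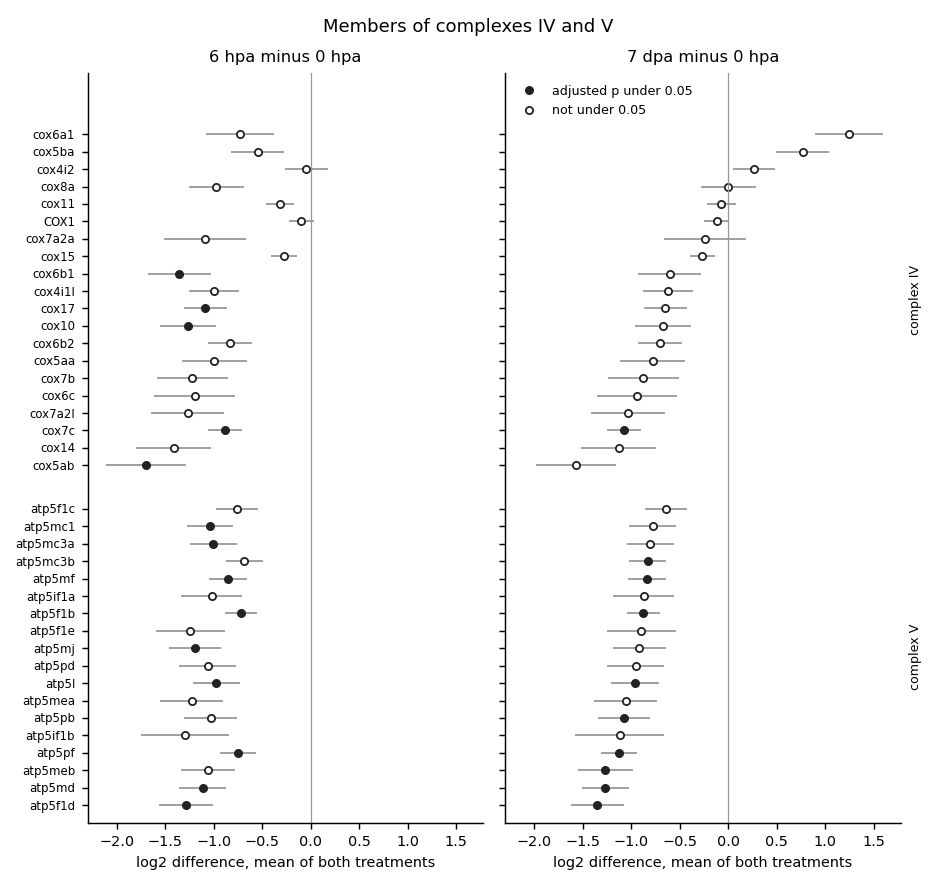
Log2 difference of each gene of complexes IV and V at 6 hpa (left) and 7 dpa (right) from 0 hpa, averaged over both treatments, with standard error bars; filled points have a limma adjusted p under 0.05. All points of complex V lie below 0, while complex IV spans −1.57 (cox5ab) to 1.24 (cox6a1) at 7 dpa.

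Within each treatment fewer genes passed, with 2 arrays a group. In TCDD hearts at 6 hpa all 92 genes were below 0 hpa, with a median of −1.32, and 6 fell, where 1.41% of all probe sets fell. The 6 were ndufs1, ndufv1, ndufa8, ndufaf5, cyc1 and uqcrc2b. Without TCDD 6 hpa replicate 1 the median was −0.61 and 1 gene fell, where 0.245% of all probe sets fell. In control hearts at 6 hpa all 92 were below 0 hpa with a median of −0.84, and 0 fell in limma, where 0.316% of all probe sets fell. At an unadjusted p under 0.05, 31 of the 92 were lower in control hearts at 6 hpa, where 6.75% of all probe sets were. With the TCDD array left out of the shared spread, 22 fell in control hearts at 6 hpa, where 1.29% of all probe sets fell.

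At 7 dpa the treatments were closer to each other. In TCDD hearts at 7 dpa 86 genes were below 0 hpa with a median of −0.91. Of them 0 fell in limma, where 0.4% of all probe sets fell, and 42 were lower at an unadjusted p under 0.05, where 5.23% of all probe sets were. In control hearts 89 were below 0 hpa with a median of −1.02, and 3 fell (cyc1, ndufv2 and cox7c), where 0.348% of all probe sets fell. Without TCDD 6 hpa replicate 1, 45 genes fell in TCDD hearts, where 1.42% of all probe sets fell, and 55 in control hearts, where 1.41% did. cox6a1 then rose in TCDD hearts, where 2.99% of all probe sets rose, by 1.35, and was at 1.14 in control hearts without passing (limma, adjusted p = 0.0588).

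With all arrays, none of the 92 genes was called between TCDD and control at any time. At 0 hpa 0 genes differed between TCDD and control in limma, where 0.0258% of all probe sets did, and 0 at an unadjusted p under 0.05, where 1.45% did; their median was −0.07. At 6 hpa 0 genes were called, where 0.0129% of all probe sets were, with a median of −0.54. At an unadjusted p under 0.05, 7 were lower at 6 hpa and 0 higher, where 2.72% of all probe sets differed. The 6 hpa median turned to 0.11 without TCDD 6 hpa replicate 1, with 0 lower and 2 higher at an unadjusted p under 0.05, where 2.44% of all probe sets differed. It was −1.25 without replicate 2, with 63 genes called, where 4.92% of all probe sets were, so that the direction at 6 hpa rests on which array of the pair is kept. The 246 other probe sets of like brightness had a median of −0.57 in the same comparison.

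At 7 dpa the median difference between TCDD and control was 0.01, with 44 genes below 0 and 48 above, 0 called where 0.116% of all probe sets were, and 1 (cox4i2, at −0.71) at an unadjusted p under 0.05, where 3.97% of all probe sets were. The genes ranged from −0.71 to 0.86, with a median standard error of 0.39, or 0.21 without TCDD 6 hpa replicate 1, so that differences near that size between the treatments were not detectable. cyc1, for which the difference was 0.16 ± 0.28, and ndufs1, at 0.02 ± 0.35, are examples. The interaction of TCDD and amputation, the test of whether the response differs between treatments, was called for 0 of the 92 genes at 6 hpa, where 0.00645% of all probe sets were, and for 0 at an unadjusted p under 0.05, where 1.14% were. At 7 dpa it was called for 0, where 0.00645% of all probe sets were, and for 0 at an unadjusted p under 0.05, where 2.01% were. With 2 pools a side, 0.333 is the smallest p that exact permutation allows, so single genes were tested only with the spread shared over the 6 groups.

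Genes of neighbouring pathways were read from the same fits, and a second median in parentheses is that without TCDD 6 hpa replicate 1. Counts of genes called moved both ways without that array and are given here with all arrays. With all arrays, 5.54% of all probe sets fell and 1.86% rose at 6 hpa, and 2.75% fell and 4.73% rose at 7 dpa. Of 20 measured citric acid cycle genes, 9 fell and 0 rose at each time, with medians of −0.96 (−0.78) and −0.98. sucla2, of succinyl-CoA synthetase, was at −1.40 and −1.41, and pdhb, of pyruvate dehydrogenase, at −1.13 and −1.15. Of 11 genes of cytochrome c, electron transfer flavoprotein, ubiquinone synthesis and a dehydrogenase that feeds ubiquinone, 7 fell at 6 hpa and 4 at 7 dpa. Their medians were −1.09 (−0.82) and −0.96. etfdh, which feeds electrons of fatty acid oxidation to ubiquinone, fell by 1.82 and 1.46. Of 14 genes of mitochondrial carriers and energy transfer, 8 fell and 0 rose at 6 hpa. At 7 dpa 6 fell and 0 rose, and the medians were −0.89 (−0.77) and −0.78. ckmt2a, the mitochondrial creatine kinase of muscle, fell by 1.40 and 2.48, while ucp2, an uncoupling protein, was at 1.14 and 0.77 without passing. With the array left out ucp2 was at 1.75 at 6 hpa and passed at both times (limma, adjusted p = 0.0026 and adjusted p = 0.0205).

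Assembly factors outside the naming rule were lower as well, with 4 of 12 called at 6 hpa and 3 at 7 dpa, and medians of −0.71 (−0.64) and −0.64. Among them lrpprc, which stabilises mitochondrial mRNA, fell by 1.12 and 1.11. Of 24 genes of mitochondrial import and structure, 6 fell at 6 hpa and 3 at 7 dpa, with medians of −0.79 (−0.49) and −0.61. Among them immt, of the cristae junctions, fell by 1.08 and 1.05. The listed regulators of mitochondrial gene expression and biogenesis showed no shift of that size. Their 12 genes had medians of 0.07 (0.09) and −0.15. Their median deviation was between −0.20 and −0.14 on the 7 dpa arrays, below the −0.04 to 0.04 of the 0 hpa arrays. ssbp1 fell at 6 hpa, by 0.66, and was no longer called without the array, and ppargc1b fell at 7 dpa, by 1.12. Those genes were dim, and nrf1, gabpa and tfam, at mean levels of 4.64, 4.91 and 4.47, were at 0.20, 0.17 and −0.24 at 6 hpa and at −0.13, 0.10 and −0.44 at 7 dpa.

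Markers of several cell types also differed between the times in the apex samples. Beside the counts below, 5.54% of all probe sets fell and 1.86% rose at 6 hpa, and 2.75% fell and 4.73% rose at 7 dpa. A single call in a list of this size cannot be told apart from these shares. Of 15 cardiomyocyte markers, 1 fell and 1 rose at 6 hpa and 6 fell and 0 rose at 7 dpa, and their 6 hpa median was −0.70, or −0.44 without TCDD 6 hpa replicate 1. Their median deviation was between −1.13 and −0.22 on the 6 hpa arrays, between −0.67 and −0.41 on the 7 dpa arrays and between −0.15 and 0.00 on the 0 hpa arrays. Their summed intensity was 25346 to 37648 at 6 hpa and 25937 to 34126 at 7 dpa, against 40917 to 45402 at 0 hpa. Without TCDD 6 hpa replicate 1 the lowest 6 hpa sum was 31837 and the lowest 6 hpa median deviation −0.54. On each of the 8 arrays after amputation the subunit medians of all 5 complexes lay below the marker median. The cardiac genes named earlier were brighter than most subunit genes and lay close to the highest levels on the arrays. Whether log2 changes of such bright markers were compressed, which bears on this difference, was not tested. On control 7 dpa replicate 2 the gap between complex IV (−0.67439) and the markers (−0.67121) was negligible. In TCDD hearts at 7 dpa complex IV was at −0.62 and −0.69, with marker medians from −0.65 to −0.41, so a further gap was small.

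At 6 hpa 10 of 14 erythrocyte markers rose, with fewer calls without TCDD 6 hpa replicate 1. Their summed intensity was 16903 to 25918, against 7616.5 to 10650 at 0 hpa. At 7 dpa 0 of the 14 passed, and the sum was 7908.5 to 11974. Of 17 leukocyte markers, 1 rose at 6 hpa and 9 at 7 dpa, with summed intensities of 542.7 to 3364 at 6 hpa and 2602 to 8709 at 7 dpa, against 899.9 to 1803 at 0 hpa. Without TCDD 6 hpa replicate 1 the lowest leukocyte sum at 6 hpa was 2003, above the 0 hpa range. Of 14 epicardium and fibroblast markers, 5 fell at 6 hpa and 12 rose at 7 dpa, with sums of 251.1 to 737.2 and 5740 to 7477, against 675.1 to 1081 at 0 hpa. Their lowest 6 hpa sum without that array was 468.2.

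Of 17 epidermis markers, 3 fell at 6 hpa and 9 rose at 7 dpa, with sums of 393.2 to 1774.5 and 5709 to 11825, against 1957 to 3793 at 0 hpa. Endothelium markers gave 1 fall of 7 at 6 hpa and none at 7 dpa, with sums of 102.5 to 216.0 and 136.6 to 279.8, against 268.7 to 396.1 at 0 hpa. Pancreas and gut markers gave no call of 13 at 6 hpa and 1 fall at 7 dpa, with sums of 223.0 to 407.2 and 115.2 to 172.4, against 236.4 to 782.3 at 0 hpa. Without TCDD 6 hpa replicate 1 the lowest 6 hpa sums were 1369.6 for epidermis, 171.4 for endothelium and 263.3 for pancreas and gut. At 0 hpa TCDD sums lay below control sums for cardiomyocyte markers (40917 to 42024, against 42842 to 45402). They also did for erythrocyte, epicardium and fibroblast, endothelium and epidermis markers. At 6 hpa they did for cardiomyocyte (25346 to 31837, against 37171 to 37648), epicardium and fibroblast, endothelium and epidermis markers, with or without TCDD 6 hpa replicate 1. At 7 dpa some TCDD and control sums did not overlap either. With TCDD first, leukocyte sums were 2602 to 3589 and 5134 to 8709. Epicardium and fibroblast sums were 5740 to 5769 and 6524 to 7477, and epidermis sums 11803 to 11825 and 5709 to 8388. Sums of the cell type lists not named here for a time overlapped between the treatments at that time. No marker is at 0 in these data, since the deposited values have no zeros. The part of these shifts in cell makeup in the lower levels of the 92 genes was not tested, nor was the source of the epidermis, pancreas and gut signal.

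**Figure D5:**
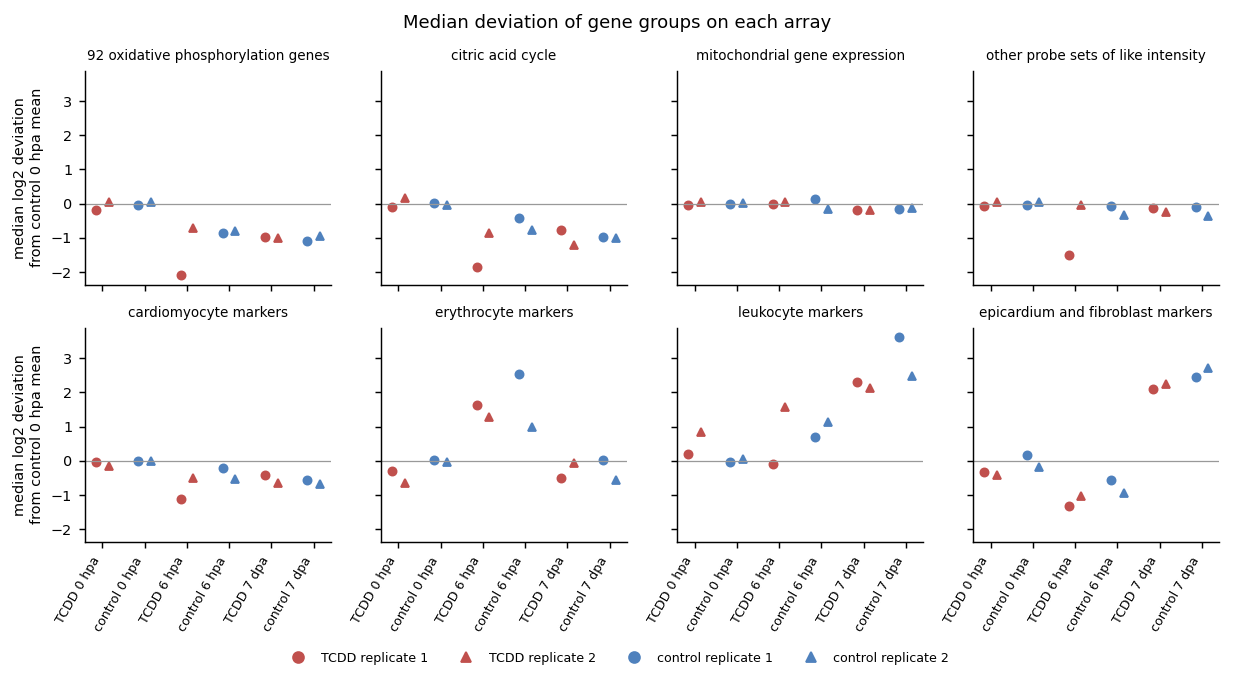
Median log2 deviation from the control 0 hpa mean of the 92 genes, of 2 mitochondrial gene lists, of the 246 other probe sets of like brightness and of 4 lists of cell type markers on each of the 12 arrays; circles are replicate 1 and triangles replicate 2. The 92 genes and the citric acid cycle lie below 0 on all 8 arrays after amputation, erythrocyte markers are high at 6 hpa, and leukocyte and fibroblast markers are high at 7 dpa.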

How the data were processed

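RNA from pooled ventricle apex tissue was hybridised to 12 Affymetrix arrays, 1 per pool. The deposited values are linear probe set intensities that the authors made with RMA (background correction, quantile normalization and summary of probes), per the submitters' processing notes; which program and version ran it was not given in the sources used here. They were turned into log2 here. The 12 arrays did not share 1 distribution: medians ran from 3.26 to 3.53 and 99th percentiles from 9.88 to 10.64. Whether the arrays were normalized together was not tested. The 115 Affymetrix control probe sets were left out, and 15502 were tested. Of these 10795 had 1 gene symbol in the platform annotation, 135 several and 4572 none, and all 92 genes matched RefSeq.

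One model with 6 group means was fitted with limma 3.58.1 in R 4.3.3 (lmFit, eBayes, 2-sided, Benjamini-Hochberg over all probe sets), and was tested on simulated data. Contrasts at 6 hpa and 7 dpa also averaged the amputation response over treatments. The number of arrays limits precision. Members and lists were chosen with earlier results of these data known, and dldh was dropped from the citric acid cycle list after its values were seen. Genes named are the brightest, the most and least changed and up to 10 called per complex or comparison, plus a fixed list of key subunits and isoforms. Alternatives covered normalization, array weights, moderation, a filter on dim probe sets, the samples fitted, pairing and each array left out. Promoter and protein sequences were not analysed here.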

Additional observations from a re-analysis of the deposited data

How the results depend on the processing

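The direction of the median held under every alternative run for the amputation comparisons, while counts of genes called moved widely. The share of all probe sets called is not given for most of these fits, with arrays left out or not. The counts below therefore show only how far the calls depend on the fit. Array weights gave 72 calls at 6 hpa and 68 at 7 dpa averaged over treatments, 0 in TCDD hearts and 14 in control hearts at 6 hpa, and 16 in TCDD hearts and 19 in control hearts at 7 dpa. Fitting only the groups compared gave 13 at 6 hpa and 76 at 7 dpa, 0 in TCDD hearts at 6 hpa, and 21 in TCDD hearts and 8 in control hearts at 7 dpa. Quantile normalization gave 59 at 7 dpa, 11 in TCDD hearts and 2 in control hearts at 6 hpa, and 21 in TCDD hearts and 23 in control hearts at 7 dpa. Its 6 hpa medians were −0.78 over both treatments, −0.85 in TCDD hearts, −0.70 in control hearts, −0.21 for TCDD against control and −0.15 for the interaction. Centring on the array median gave 1 call in TCDD hearts at 6 hpa and 0 in control hearts at 7 dpa, with 6 hpa medians of −1.18 over both treatments, −1.47 in TCDD hearts and −0.58 for the interaction. A trended, robust moderation gave 1 and 0 in the same comparisons. Keeping 1 probe set per gene, or leaving out the 25% dimmest, gave 1 in TCDD hearts at 7 dpa. The replicate block gave 54 at 6 hpa and 37 at 7 dpa over both treatments and 2 in TCDD hearts at 6 hpa. The labels do not say that equal numbers share a litter or day, and the numbers were not treated as pairs. Deviations of same-numbered arrays correlated from −0.378 to 0.563 over 15 pairs of groups. Between TCDD and control they correlated at 0.476 at 0 hpa, −0.135 at 6 hpa and 0.563 at 7 dpa. A link between equal numbers within a single time was not modelled. The actin 3′ minus 5′ value was higher in replicate 1 than in replicate 2 in all 6 groups. The cause of these differences was not tested.

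With each array left out in turn, calls ranged from 3 to 85 at 6 hpa (medians −1.42 to −0.72) and 9 to 77 at 7 dpa over both treatments, 0 to 80 in TCDD hearts (medians −2.01 to −0.61) and 0 to 22 in control hearts at 6 hpa, and 0 to 46 in TCDD hearts (medians −1.04 to −0.83) and 0 to 55 in control hearts at 7 dpa. For TCDD against control, the median ranged from −0.19 to 0.045 at 0 hpa, turning positive without TCDD 0 hpa replicate 1, and from −1.25 to 0.11 at 6 hpa with 0 to 63 calls, turning positive without TCDD 6 hpa replicate 1. The interaction ranged from −1.16 to 0.19 at 6 hpa with 0 to 8 calls, turning positive without the same array, and from −0.021 to 0.19 at 7 dpa, turning negative without TCDD 0 hpa replicate 1. Over the 51 named genes, 1716 of 2140 values kept their call, 243 lost it, 181 gained one and 0 reversed. These values cover only part of the comparisons, so they need not take in the turns of direction given above. With 2 pools a group, and a dim end where change is compressed, small differences are not detectable.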
